A study of Mus musculus with 12 samples.

Results

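The genes described here are Lrmp, Itpr1, Itpr2 and Itpr3, 4 of the 24346 gene symbols in the deposited files. They were named as a set: the genes of the IP3 receptor family and Lrmp, a lymphoid protein that binds these receptors. The set was chosen with earlier results of the same libraries known, and it was selected on differences between genotypes: that of Lrmp with lipopolysaccharide (LPS), those of Itpr2 without stimulus and with an antibody to IgM (anti-IgM), and that of Itpr1 with anti-IgM. Genotype differences of the 4 genes are therefore given as a description with no test, and tests are given for the responses to each stimulus, which did not choose the genes but share libraries with the differences that did.

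The cells were marginal zone B cells, innate-like B lymphocytes of the spleen, from wild-type mice and from Trpm5-/- mice, which lack the calcium-activated cation channel TRPM5. Cells of each genotype were cultured for 4 h without stimulus, with LPS at 10 µg/mL, which acts through Toll-like receptors, or with anti-IgM at 10 µg/mL, which cross-links the B cell receptor. The study asked what loss of Trpm5 changes in B cells given these stimuli. Each of the 6 groups held 2 libraries, and the labels do not tell from how many mice or cultures a pair came. A p-value weighs a difference between group means against the spread of libraries within groups, pooled over the 6 groups. That spread may be technical variation alone. The sources used here do not give the deleted part of Trpm5 or the strain and age of the mice.

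The values were taken as FPKM, fragment numbers divided by transcript length and by a number for library size. This is a level per length that allows genes to be compared. Whether the values had also been scaled between libraries before deposit is not known here. Over both genotypes, libraries summed to 563461 to 597308 FPKM without stimulus, 620848 to 677062 FPKM with anti-IgM and 749063 to 805373 FPKM with LPS. Scaled to equal sums, values with LPS would be lower relative to those without stimulus, a setting that was not run. Depth relative to replicate 1 of unstimulated wild-type cells, estimated from the value that a lone fragment adds, was 0.645 to 1.06. This estimate would include any earlier scaling between libraries. Trpm5 was listed at 0.0196 to 0.434 FPKM in the wild-type libraries and at 0 to 0.0303 FPKM in the Trpm5-/- libraries. The genotypes overlapped without stimulus, with 0.0196 FPKM in a wild-type and 0.0236 FPKM in a Trpm5-/- library. With anti-IgM the wild-type libraries read only 0.059 and 0.0241 FPKM, against 0 in the Trpm5-/- ones. Pan-B markers (5 of 5) and marginal zone markers (7 of 7) were detected in every group, among them Cr2 at 33.9 to 87.4 FPKM and Cd9 at 241 to 472 FPKM. The follicular marker Fcer2a was also present, at 53.4 to 937 FPKM, and all 4 erythroid markers were detected in every group, with Hba-a1, a haemoglobin gene, at up to 416 FPKM. None of the 4 NK cell markers reached 1 FPKM on average in any group. In bulk RNA, fewer cells of a type and less RNA per cell cannot be told apart.

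IP3 receptors are calcium channels of the endoplasmic reticulum. When the B cell receptor is engaged, phospholipase C gamma cleaves a membrane lipid into diacylglycerol and the soluble messenger IP3, and IP3 together with calcium opens the channel, emptying the store and so starting calcium entry from outside. The subtypes encoded by Itpr1, Itpr2 and Itpr3 assemble as tetramers and differ in their affinity for IP3 and their regulation by calcium. Lrmp, also called Jaw1, is a tail-anchored endoplasmic reticulum membrane protein of lymphoid cells, known for its high level in germinal centre B cells and for binding to IP3 receptors.

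On mm10 with GENCODE M21 annotation, Lrmp (chr6:145115653-145174934, plus strand), Itpr2 (chr6:146108299-146502223, minus strand) and Itpr1 (chr6:108213096-108551109, plus strand) lie on chromosome 6, and Itpr3 (chr17:27057304-27122223, plus strand) on chromosome 17. Lrmp and Itpr2 are 0.93 Mb apart, and Itpr1 lies 36.6 Mb from Lrmp. All are protein-coding, and values are per gene, over its exons. Lrmp overlaps exons of Casc1 on the opposite strand, which was at 0 to 0.597 FPKM. Itpr1 and Itpr3 overlap exons of annotated antisense RNAs (Gm44040 and Itpr3os) that have no values here. Gm43910 overlaps exons of Lrmp and Gm44101 exons of Itpr1, each on the opposite strand and with no values here. The kit does not mark strand, so fragments of a gene and its antisense partner cannot be told apart.

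Promoter sequences from RefSeq (GRCm38.p6) matched 2 of the 4 genes, Itpr2 and Itpr3. Both are shown, and Lrmp and Itpr1 had no match. Each run is the 250 bases before the annotated start, with motif matches in capitals:
Itpr2 promoter, chr6:146502224-146502473, minus strand: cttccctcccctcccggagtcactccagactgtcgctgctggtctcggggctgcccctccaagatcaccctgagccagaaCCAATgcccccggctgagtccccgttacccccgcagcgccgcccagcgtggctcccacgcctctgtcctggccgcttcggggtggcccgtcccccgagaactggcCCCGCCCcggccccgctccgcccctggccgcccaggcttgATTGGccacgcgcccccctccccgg
Itpr3 promoter, chr17:27057054-27057303, plus strand: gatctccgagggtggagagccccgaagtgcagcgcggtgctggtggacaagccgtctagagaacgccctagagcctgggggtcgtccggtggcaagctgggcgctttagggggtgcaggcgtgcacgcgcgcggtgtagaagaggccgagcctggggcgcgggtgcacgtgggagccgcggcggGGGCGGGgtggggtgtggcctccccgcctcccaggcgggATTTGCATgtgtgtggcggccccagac
Capitals mark a GC box (GGGCGGG on either strand) at -65 to -59 in Itpr2 and at -66 to -60 in Itpr3, counted from the start. They also mark CCAAT boxes (CCAAT on either strand) at -170 to -166 and -25 to -21 in Itpr2, and in Itpr3 an octamer (ATTTGCAT), the motif known for B cell promoters, at -27 to -20. GC content was 74.4% for Itpr2 and 72.0% for Itpr3, against a median of 52.4% over 32851 RefSeq promoter windows of the same length. Among those windows 23.4% held the GC box, 33.8% a CCAAT box and 1.6% the octamer. The other 11 of 14 motifs searched, among them the NFAT core GGAAA (55.6% of windows) and an NF-kB type motif, GGGANTTTC (0.941%), had no match in either window. These are matches of letters in 1 window a gene, and no binding was measured.

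Lrmp, the partner, was the most abundant of the 4 genes in every group, and the stimuli moved it in opposite directions. Without stimulus the wild-type libraries read 53.2 and 51.0 FPKM and the Trpm5-/- libraries 63.3 and 66.2 FPKM. With LPS they read 8.88 and 12.3 FPKM in wild-type cells and 42.9 and 44.2 FPKM in Trpm5-/- cells. With anti-IgM they read 122 and 127 FPKM in wild-type cells and 167 and 168 FPKM in Trpm5-/- cells. No group overlapped another: Trpm5-/- cells with anti-IgM were highest and wild-type cells with LPS lowest.

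With LPS, Lrmp fell by 2.21 ± 0.11 on the log2(FPKM + 1) scale in wild-type cells (± standard error; limma adjusted p = 3.25e-08), 4.93-fold between the means. In Trpm5-/- cells it fell by 0.56 ± 0.11 (limma adjusted p = 0.001), or by 0.85 with quantile normalization. Such log2 differences understate the change of low genes. Calls are frequent under LPS: 69.4% of the 10797 tested genes passed limma's adjusted p under 0.05 in wild-type cells, 35.0% as higher and 34.4% as lower, and in Trpm5-/- cells 68.7%, 34.8% and 33.8%. In wild-type cells 2.68% of tested genes had a lower log2 response than Lrmp, and in Trpm5-/- cells 27.9% did. With anti-IgM, Lrmp rose in wild-type cells by 1.24 ± 0.11 (limma adjusted p = 6.65e-06) and in Trpm5-/- cells by 1.36 ± 0.11 (limma adjusted p = 3.74e-06). Of the tested genes, 48.6% passed in wild-type cells with anti-IgM, 27.7% as higher, and in Trpm5-/- cells 49.9% and 26.9%. In these 97.3% and 98.4% of tested genes had a lower log2 response than Lrmp.

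**Figure D1:**
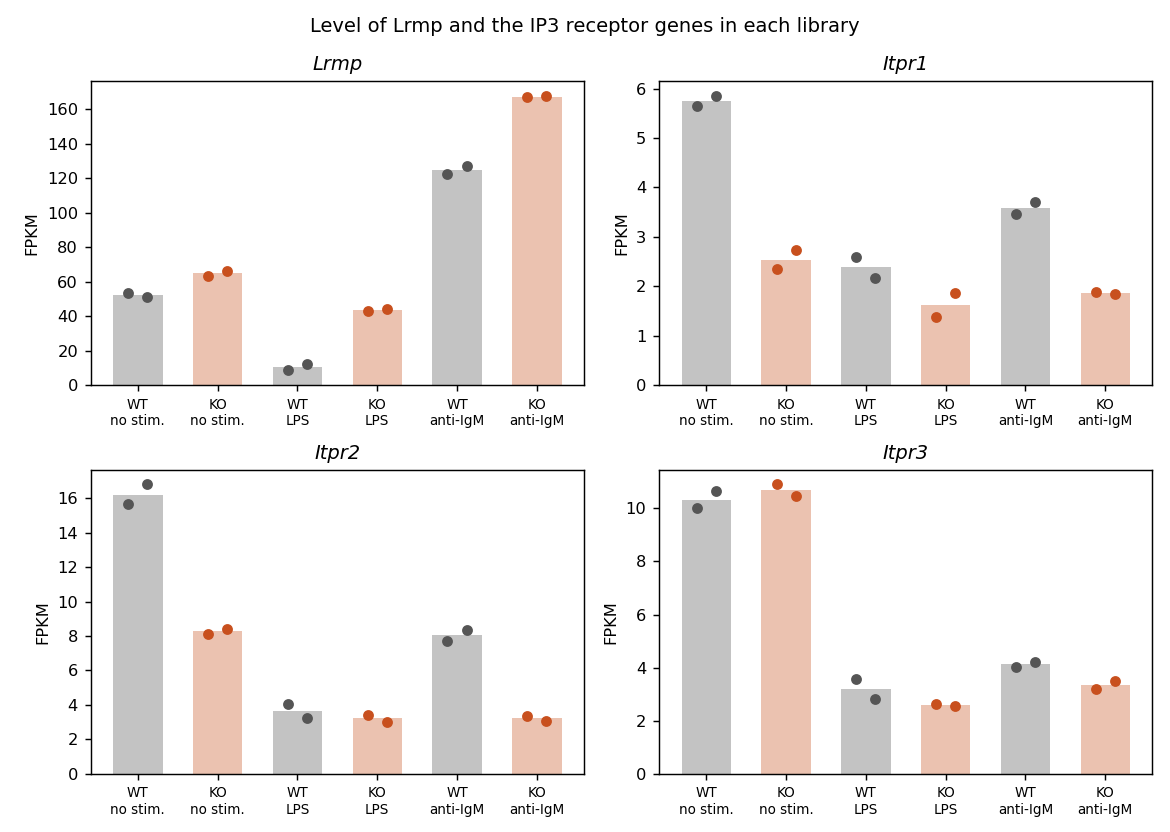
FPKM of each gene (vertical axis, linear and from 0, scaled separately) in the 6 groups (WT, wild type; KO, Trpm5-/-; no stim., no stimulus). Points are libraries and bars the mean of 2; Lrmp rises with anti-IgM to 167 FPKM in Trpm5-/- cells, whereas the Itpr genes are highest without stimulus.

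Set against each other, the stimuli left Lrmp lower with LPS than with anti-IgM, with a log2 difference of -3.46 ± 0.11 in wild-type cells (limma adjusted p = 5.93e-09) and -1.92 ± 0.11 in Trpm5-/- cells (limma adjusted p = 3.23e-07). In this comparison 52.7% of tested genes passed in wild-type cells and 51.9% in Trpm5-/- cells. The LPS and anti-IgM responses of a genotype share their unstimulated libraries.

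Itpr2, the receptor subtype with the highest affinity for IP3, was the leading receptor transcript of wild-type cells. It read 15.7 and 16.8 FPKM in unstimulated wild-type cells and 8.14 and 8.44 FPKM in unstimulated Trpm5-/- cells. With LPS the wild-type libraries read 4.02 and 3.22 FPKM and the Trpm5-/- libraries 3.43 and 3.02 FPKM. With anti-IgM the wild-type libraries read 7.73 and 8.37 FPKM, while those of Trpm5-/- cells read 3.38 and 3.09 FPKM. Unstimulated wild-type cells stood above all other groups, wild-type cells with anti-IgM overlapped unstimulated Trpm5-/- cells, and the other groups lay together at the bottom, each overlapping its neighbour.

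With LPS, Itpr2 fell by 1.90 ± 0.13 on the log2 scale in wild-type cells (limma adjusted p = 3.42e-07) and fell by 1.14 ± 0.13 in Trpm5-/- cells (limma adjusted p = 1.95e-05). With anti-IgM it fell by 0.93 ± 0.13 in wild-type cells (limma adjusted p = 0.000179) and fell by 1.14 ± 0.13 in Trpm5-/- cells (limma adjusted p = 4.33e-05). LPS left Itpr2 lower than anti-IgM did in wild-type cells, a difference of -0.97 ± 0.13 (limma adjusted p = 0.000123). In Trpm5-/- cells this difference was -0.0028, with a 95% interval of -0.29 to 0.28, and was not called (limma adjusted p = 0.99). Quantile normalization raised it to 0.215, still uncalled (limma adjusted p = 0.187).

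Itpr3, the subtype with the lowest affinity for IP3, fell with both stimuli in both genotypes. Its libraries read 10.0 and 10.6 FPKM in unstimulated wild-type cells and 10.9 and 10.5 FPKM in unstimulated Trpm5-/- cells. Under LPS the wild-type pair read 3.59 and 2.83 FPKM and the Trpm5-/- pair 2.62 and 2.55 FPKM. Under anti-IgM the pairs read 4.04 and 4.19 FPKM and 3.20 and 3.51 FPKM, wild type first. The unstimulated groups overlapped each other and lay above every stimulated library.

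On the log2 scale Itpr3 fell by 1.43 ± 0.13 with LPS in wild-type cells (limma adjusted p = 3.22e-06) and fell by 1.71 ± 0.13 in Trpm5-/- cells (limma adjusted p = 8.49e-07). With anti-IgM it fell by 1.15 ± 0.13 in wild-type cells (limma adjusted p = 4.01e-05) and fell by 1.43 ± 0.13 in Trpm5-/- cells (limma adjusted p = 8.38e-06). LPS against anti-IgM differed by -0.29 in wild-type cells (95% interval -0.57 to 0.00099, limma adjusted p = 0.0867) and by -0.28 in Trpm5-/- cells (95% interval -0.57 to 0.0092, limma adjusted p = 0.0969), and neither was called. Both passed without the mean-variance trend (limma adjusted p = 0.0316 and 0.0364), and both came near 0 with quantile normalization, at -0.0064 (limma adjusted p = 0.973) and -0.051 (0.764). The wild-type difference was -0.42 without wild-type LPS replicate 1, where it passed (limma adjusted p = 0.0458), and -0.16 without replicate 2 (0.42).

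Itpr1, the subtype best known from neurons, was the lowest of the family in every group. It read 5.65 and 5.86 FPKM in unstimulated wild-type cells and 2.35 and 2.74 FPKM in unstimulated Trpm5-/- cells. LPS brought 2.60 and 2.17 FPKM in the wild-type pair and 1.37 and 1.86 FPKM in the Trpm5-/- pair. Anti-IgM brought 3.46 and 3.70 FPKM in the wild-type pair and 1.88 and 1.84 FPKM in the Trpm5-/- pair. In each condition the Trpm5-/- libraries lay below the wild-type ones, and unstimulated Trpm5-/- cells overlapped wild-type cells with LPS.

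In wild-type cells Itpr1 fell by 1.0 ± 0.15 on the log2 scale with LPS (limma adjusted p = 0.000158) and fell by 0.56 ± 0.15 with anti-IgM (limma adjusted p = 0.0108). With quantile normalization the LPS value shrank to -0.56 and stayed called (limma adjusted p = 0.00697, the highest over the alternatives, the lowest being 5.06e-05). The anti-IgM call was lost without wild-type unstimulated replicate 2 (limma adjusted p = 0.0535) or wild-type anti-IgM replicate 1 (0.0582, the highest of all alternatives, the lowest being 0.00302). In Trpm5-/- cells it fell by 0.44 ± 0.15 with LPS (limma adjusted p = 0.0233), a call lost without Trpm5-/- unstimulated replicate 2 (0.124), without Trpm5-/- LPS replicate 1 (0.152) and when fitted on the compared libraries alone (0.0773). Quantile normalization turned that value to 0.013 (limma adjusted p = 0.944, range 0.00621 to 0.944). The difference with anti-IgM in Trpm5-/- cells, -0.31 ± 0.15, was not called (limma adjusted p = 0.114, 95% interval -0.64 to 0.026). It passed without the mean-variance trend (limma adjusted p = 0.0436) and was -0.071 with quantile normalization (0.725, the highest over the alternatives).

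Between the stimuli, Itpr1 was lower with LPS than with anti-IgM in wild-type cells, a difference of -0.44 ± 0.15 (limma adjusted p = 0.0307), a call lost without wild-type LPS replicate 2 (limma adjusted p = 0.161), wild-type anti-IgM replicate 1 (0.0718) or wild-type anti-IgM replicate 2 (0.122), with a range of 0.00924 to 0.44 over the alternatives. Quantile normalization reduced the value to -0.15 and ended the call, as did fitting the compared libraries alone (limma adjusted p = 0.0611). In Trpm5-/- cells the difference was -0.13 (95% interval -0.47 to 0.20, limma adjusted p = 0.487), which was not called. Quantile normalization gave 0.085 and leaving out Trpm5-/- LPS replicate 1 gave 0.001, neither called (limma adjusted p = 0.67 and 1, range 0.244 to 1).

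**Figure D2:**
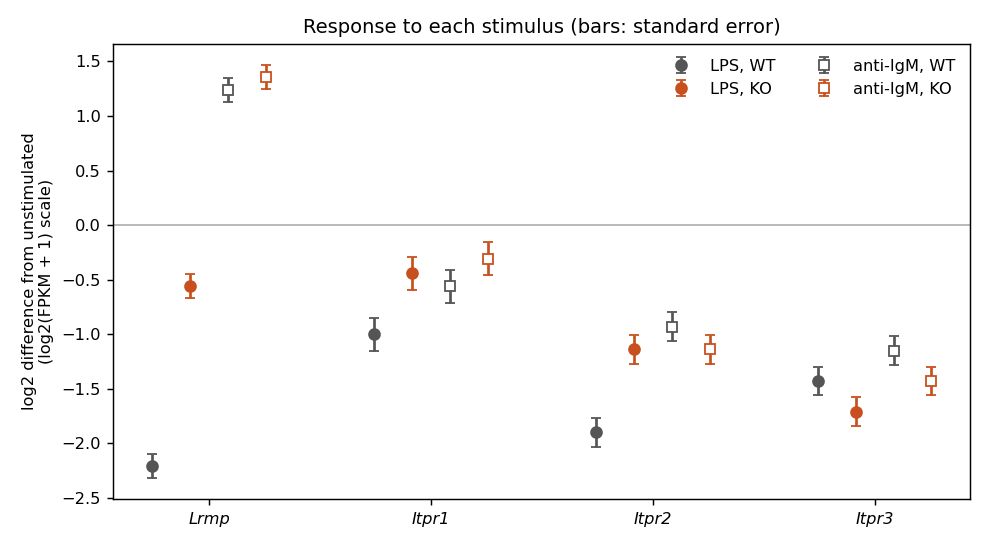
Response of each gene to LPS (circles) and anti-IgM (open squares) as the log2 difference from unstimulated cells, in wild-type (WT, grey) and Trpm5-/- (KO, orange) cells, with standard errors of the limma fit. Lrmp lies at 1.24 and 1.36 with anti-IgM, above 0, and every other value lies below 0; Itpr1 with LPS in Trpm5-/- cells moves to 0.013 with quantile normalization.

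Summed over Itpr1, Itpr2 and Itpr3, receptor transcripts were highest without stimulus in both genotypes. The sum was 32.3 ± 1.42 FPKM in unstimulated wild-type cells (SD, n = 2), 9.21 ± 1.40 FPKM with LPS and 15.7 ± 0.73 FPKM with anti-IgM. In Trpm5-/- cells it was 21.5 ± 0.18, 7.43 ± 0.0030 and 8.44 ± 0.015 FPKM in that order. Within each condition the Trpm5-/- libraries were below the wild-type ones.

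The make-up of the sum also varied. In unstimulated wild-type cells Itpr2 gave 50.2% of it, Itpr3 31.9% and Itpr1 17.8%, whereas in unstimulated Trpm5-/- cells Itpr3 gave 49.7%, Itpr2 38.5% and Itpr1 11.8%. With LPS the Itpr3 share was 34.8% in both genotypes, and the Itpr2 share was 39.3% in wild-type and 43.4% in Trpm5-/- cells. With anti-IgM, Itpr2 gave 51.1% in wild-type cells and 38.3% in Trpm5-/- cells. The order Itpr2 above Itpr3 held without library overlap in wild-type cells without stimulus, in wild-type cells with anti-IgM and in Trpm5-/- cells with LPS. The reverse order held in unstimulated Trpm5-/- cells. Itpr2 and Itpr3 overlapped in wild-type cells with LPS and in Trpm5-/- cells with anti-IgM.

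**Figure D3:**
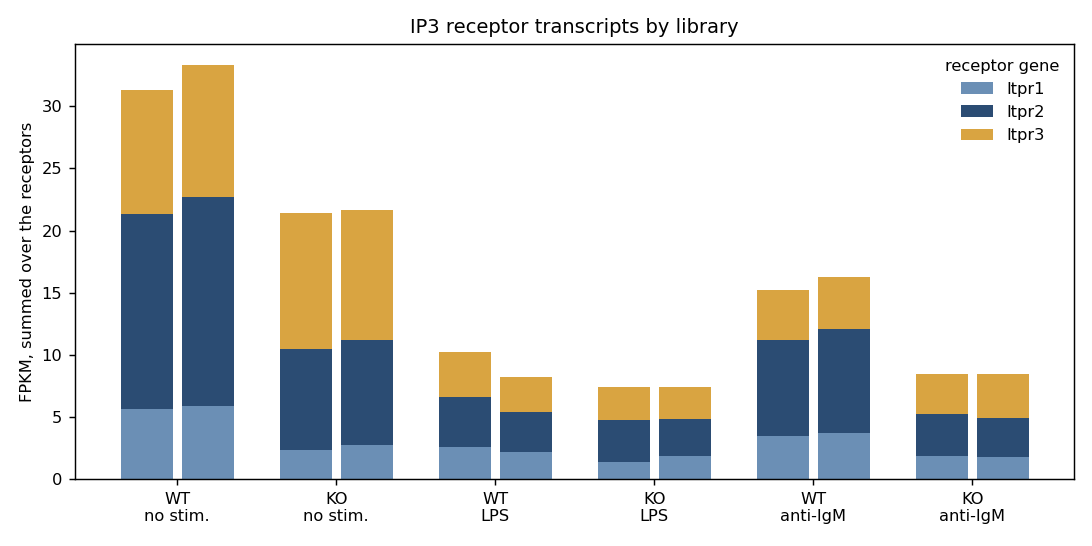
FPKM of Itpr1, Itpr2 and Itpr3 stacked for each library (vertical axis, linear from 0; a pair of bars per group, WT wild type, KO Trpm5-/-). Unstimulated wild-type libraries sum to 31.3 and 33.3 FPKM and Trpm5-/- libraries with LPS to 7.43 FPKM each.

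Because Lrmp and the receptors responded differently, the ratio of Lrmp to the receptor sum spanned a wide range. In wild-type cells it was 1.62 ± 0.12 without stimulus, 1.18 ± 0.44 with LPS and 7.92 ± 0.15 with anti-IgM (SD, n = 2). The Trpm5-/- values were 3.01 ± 0.071, 5.87 ± 0.12 and 19.8 ± 0.13. The groups did not overlap between genotypes in any condition. These are ratios of transcript levels, and protein was not measured.

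Between genotypes, as a description with no test, Lrmp was higher in Trpm5-/- cells in each condition. Its log2 difference (Trpm5-/- minus wild type) was 0.31 ± 0.11 without stimulus, 1.96 ± 0.11 with LPS, which is 4.12-fold between the means, and 0.42 ± 0.11 with anti-IgM. Without wild-type LPS replicate 1 the LPS value was 1.75, and without replicate 2 it was 2.17. The difference between its LPS responses in the genotypes was 1.65 ± 0.15, and between its anti-IgM responses 0.12 ± 0.15.

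The receptors lay lower or level in Trpm5-/- cells. Itpr2 differed by -0.89 ± 0.13 on the log2 scale without stimulus, -0.13 ± 0.13 with LPS, where the libraries overlapped, and -1.10 ± 0.13 with anti-IgM. Itpr1 differed by -0.93 ± 0.15, -0.37 ± 0.15 and -0.68 ± 0.15 in the same order. Itpr3 differed by 0.047 ± 0.13 without stimulus, where the libraries overlapped, -0.23 ± 0.13 with LPS and -0.23 ± 0.13 with anti-IgM. Without wild-type LPS replicate 1 the LPS values of Itpr3 and Itpr2 were -0.096 and -0.00064, and without replicate 2 they were -0.36 and -0.25. Without Trpm5-/- LPS replicate 1 the LPS values of Itpr1 and Itpr2 were -0.24 and -0.20, and without Trpm5-/- LPS replicate 2 that of Itpr2 was -0.055. The Itpr3 value without stimulus ranged from 0.0058 to 0.088 as each of its 4 libraries was left out.

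Summed marker lists of other B cell states differed between genotypes in the same libraries. The summed level of the germinal centre list, 7 genes that do not include Lrmp, with LPS was 71.6 to 72.6 FPKM for the wild type and 42.2 to 51.8 FPKM for Trpm5-/- cells. It was also lower in Trpm5-/- cells without stimulus (25.0 to 27.1 against 36.5 to 37.8 FPKM) and with anti-IgM (18.8 to 19.2 against 31.8 to 33.6 FPKM), the direction opposite to that of Lrmp. Over all libraries its largest values were those of Fas, Bcl6 and Rgs13, at up to 39.6, 28.9 and 13.3 FPKM. Gcsam, Mybl1 and S1pr2 reached at most 0.368, 0.515 and 1.64 FPKM. The plasma cell list (5 genes) was higher in Trpm5-/- cells in each condition, the direction of Lrmp, at 201 to 211 against 155 to 160 FPKM without stimulus, 329 to 332 against 280 to 301 FPKM with LPS and 310 to 320 against 267 to 282 FPKM with anti-IgM. Irf4 and Xbp1 had the largest values of the plasma cell list, at up to 239 and 124 FPKM. Sdc1 and Prdm1 reached at most 19.7 and 10.8 FPKM. The marginal zone list was also higher in Trpm5-/- cells, at 1230 to 1240 against 914 to 934 FPKM, 706 to 738 against 523 to 538 FPKM and 833 to 860 against 637 to 639 FPKM in the same order.

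Other lists were lower in Trpm5-/- cells, the direction of Itpr1. The follicular list (4 of 5 genes in the files) summed to 655 to 687 FPKM in Trpm5-/- against 886 to 901 FPKM in wild-type cells without stimulus, 1130 against 1610 FPKM with LPS and 258 to 276 against 372 to 399 FPKM with anti-IgM. The pan-B list summed to 5060 to 5070 against 5280 to 5530 FPKM, 2740 to 2800 against 3360 to 3420 FPKM and 1610 to 1640 against 1870 to 1890 FPKM. The erythroid list overlapped between genotypes without stimulus (350 to 472 against 391 to 667 FPKM) and was lower in Trpm5-/- cells with LPS (227 to 264 against 328 to 364 FPKM) and with anti-IgM (91.7 to 186 against 361 to 501 FPKM). The part of these lists in the genotype values of the 4 genes was not tested.

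With stimulus, the pan-B and marginal zone sums above were lower than without in both genotypes, as were the receptors. The T cell list (6 genes) was lower with LPS and higher with anti-IgM, as was Lrmp. It summed to 23.7 to 25.1, 14.2 to 15.6 and 63.0 to 66.9 FPKM without stimulus, with LPS and with anti-IgM in wild-type cells, and to 23.3 to 25.5, 13.6 to 14.8 and 52.5 to 55.1 FPKM in Trpm5-/- cells. Of its genes only Lck, a kinase at 13.5 to 66.2 FPKM, reached 1 FPKM on average, and the defining gene Cd3e stayed at 0 to 0.188 FPKM in all libraries.

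The stromal and endothelial list summed to 42.1 to 48.4 FPKM in unstimulated wild-type cells, 12.7 to 13.4 FPKM with LPS and 5.74 to 6.37 FPKM with anti-IgM, and to 32.4 to 35.9, 14.8 to 15.1 and 3.62 to 4.18 FPKM in Trpm5-/- cells. Of its 4 markers 1 reached 1 FPKM on average, Pecam1, an adhesion molecule also found on leukocytes, and the endothelial cadherin Cdh5 stayed at 0 to 0.0784 FPKM in all libraries. The macrophage and monocyte list (8 genes) summed to 32.0 to 38.9 FPKM without stimulus, 17.7 to 22.0 FPKM with LPS and 19 to 20.9 FPKM with anti-IgM in wild-type cells, and to 28.6 to 29.4, 25.1 to 25.9 and 23.2 to 25.9 FPKM in Trpm5-/- cells. Lyz2 stood at 5.22 to 13.5 FPKM, Cd68 at 6.60 to 11.9 FPKM and Adgre1 at 0.998 to 6.86 FPKM, while Csf1r stayed at 0 to 0.824 FPKM and Mertk at 0 to 0.113 FPKM. The dendritic cell list (4 genes) went the other way, from 8.84 to 9.28 FPKM up to 71.3 to 76.3 FPKM with LPS in wild-type cells, carried by Zbtb46 with up to 70.2 FPKM, while Siglech stayed at 0 to 0.138 FPKM. Their part in the responses was not tested.

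The wider IP3 pathway was described with a list of 56 other genes, of which 39 were tested. With LPS, 12 rose and 21 fell in wild-type cells, and 10 rose and 17 fell in Trpm5-/- cells, while about as many of all tested genes passed as higher (35.0% and 34.8%) as lower (34.4% and 33.8%). With anti-IgM, 10 rose and 9 fell in wild-type cells, beside 27.7% and 20.9% of all tested genes, and 12 rose and 9 fell in Trpm5-/- cells, beside 26.9% and 23.0%. The median log2 response of the list was -0.41 with LPS and -0.11 with anti-IgM in wild-type cells, against -0.018 and 0.016 over all tested genes. Limiting the test to genes with a mean of at least 5 FPKM left 13 and 11 falls with LPS in the wild-type and Trpm5-/- cells. Rises numbered at least 10 and 9 in every alternative other than leaving out a library, so the lean toward falls was smaller at that filter. Falls over all tested genes went down to as few as 2461 and 2468 in these alternatives.

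Upstream of the receptors, 5 of 12 listed phospholipase C genes were tested, and the rest did not pass the filter on low values. All 5 fell with LPS in both genotypes, but all except Plcg2 were low. Plcg2, the isoform that the B cell receptor uses, fell from 65.5 ± 1.48 to 41.5 ± 1.97 FPKM in wild-type cells (SD, n = 2; limma adjusted p = 1.48e-05). Plcg1 fell from 7.23 ± 1.10 to 2.27 ± 0.50 FPKM (limma adjusted p = 0.000144). The others, in wild-type cells, were Plcb2 (3.71 to 0.752 FPKM), Plcb3 (4.44 to 2.43 FPKM) and Plcd3 (2.42 to 0.237 FPKM). With anti-IgM 3 of the 5 fell in each genotype, namely Plcg1, Plcg2 and Plcd3. Plcg2 then stood at 55.7 ± 0.57 FPKM in wild-type cells (limma adjusted p = 0.022).

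Of the 7 tested enzymes that remove IP3 or its products, 5 fell with LPS in wild-type cells and 2 rose. Inpp1, a phosphatase of inositol bisphosphates, fell from 7.29 to 0.348 FPKM (log2 -2.60 ± 0.28, limma adjusted p = 1.29e-05). Inpp5a, the phosphatase that inactivates IP3 itself, fell from 13.1 to 7.92 FPKM (log2 -0.66 ± 0.11, limma adjusted p = 0.000399). Itpkc, a kinase that converts IP3 to inositol tetrakisphosphate, rose from 8.25 to 13.5 FPKM (log2 0.65 ± 0.14, limma adjusted p = 0.00163), and Impa1 was the other that rose. Among those that fell, Itpkb (2.31 to 0.904 FPKM) and Impa2 (4.07 to 1.70 FPKM) were low. In Trpm5-/- cells with LPS 4 fell, 1 rose and 2 were not called. With anti-IgM 1 of the 7 fell in wild-type cells, Inpp1, and in Trpm5-/- cells Inpp5a rose and none fell (limma adjusted p under 0.05).

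Genes for proteins that bind or place IP3 receptors were split, with 8 of 18 tested higher and 8 lower after LPS in wild-type cells. Bcl2l1, which encodes the survival protein BCL-XL, rose from 10.9 to 231 FPKM (log2 4.28 ± 0.06, limma adjusted p = 1.18e-10). Hspa9, the mitochondrial chaperone that links the receptor to VDAC1, rose from 145 to 498 FPKM (log2 1.77 ± 0.075, limma adjusted p = 1.02e-08). Erp44, a luminal thiol protein known to inhibit the type 1 receptor, rose with LPS from 75.8 to 180 FPKM (log2 1.24 ± 0.057, limma adjusted p = 1.84e-08) and fell with anti-IgM to 62.8 FPKM (log2 -0.27 ± 0.057, limma adjusted p = 0.00295).

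Bank1, a B cell scaffold that brings the kinase LYN to the receptors, fell with both stimuli in wild-type cells, from 147 to 49.8 FPKM with LPS (log2 -1.55 ± 0.092, limma adjusted p = 1.3e-07) and to 31.6 FPKM with anti-IgM (log2 -2.18 ± 0.092, limma adjusted p = 6.58e-08). Genes of this group that fell with LPS in Trpm5-/- cells included Bank1, Tespa1 and Itprip. With anti-IgM those that fell in wild-type cells included Bank1, Bcl2 and Erp44. Itprip, named for its interaction with the receptor, went from 24.0 to 3.50 FPKM with LPS in Trpm5-/- cells (limma adjusted p = 2.88e-07), and Tespa1, an adaptor of lymphocyte calcium signalling, from 13.2 to 4.33 FPKM (limma adjusted p = 0.000837). Of the 3 genes for degradation of activated receptors, Erlin2 rose and Rnf170, a ubiquitin ligase, fell with LPS in both genotypes.

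Between genotypes few pathway genes differed. Across all tested genes limma called 6.11% without stimulus (4.45% higher and 1.66% lower in Trpm5-/- cells), 3.59% with LPS (1.82% and 1.78%) and 3.83% with anti-IgM (1.91% and 1.92%). Without stimulus 1 of 39 was higher in Trpm5-/- cells, Hspa9, and 2 were lower, Bcl2 (12.4 against 19.1 FPKM, limma adjusted p = 0.0223) and Bcl2l1 (8.29 against 10.9 FPKM, limma adjusted p = 0.0121). With LPS 2 were lower, Inpp5a (5.11 against 7.92 FPKM, limma adjusted p = 0.0266) and Bank1 (36.6 against 49.8 FPKM, limma adjusted p = 0.0301). With anti-IgM 2 were lower, Bank1 (22.9 against 31.6 FPKM, limma adjusted p = 0.0256) and Bcl2l1 (17.7 against 26.4 FPKM, limma adjusted p = 0.00147). These counts fell to 0 when only the compared libraries were fitted, and leaving out any 1 of the compared libraries left 0 or 1 called lower in each condition.

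Chromosomal neighbours of the 4 genes, which did not choose them, were tested between genotypes. Within 2 Mb of Lrmp or Itpr2, 21 other genes were tested: 1 was higher and 1 lower in Trpm5-/- cells without stimulus, 2 and 1 with LPS, and 2 and 2 with anti-IgM. The shares of all tested genes called were 6.11%, 3.59% and 3.83%. All of those called lay beyond Itpr2 on the side away from Lrmp, and none lay between Lrmp and Itpr2. Stk38l, a protein kinase gene 0.22 Mb from Itpr2, was lower, with log2 differences of -1.33 ± 0.14 without stimulus (limma adjusted p = 0.000824) and -1.84 ± 0.14 with anti-IgM (limma adjusted p = 0.00013). Its difference with LPS was -0.47 ± 0.14 and was not called (limma adjusted p = 0.103).

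Closer to Itpr2, Asun and Fgfr1op2 overlap on opposite strands and differed in opposite directions. Asun was lower, with log2 differences of -0.45 ± 0.10 with LPS (limma adjusted p = 0.0423) and -0.44 ± 0.10 with anti-IgM (0.0441), and Fgfr1op2 was higher by 0.41 ± 0.08 with LPS (limma adjusted p = 0.0186) and 0.46 ± 0.08 with anti-IgM (0.00999). Rps4l, a ribosomal protein gene with a close relative elsewhere whose reads it may share, was higher by 1.98 ± 0.25 without stimulus (limma adjusted p = 0.00263), 1.97 with LPS and 1.57 with anti-IgM. Leaving out any 1 of the libraries compared left at most 2 of these genes called higher and at most 1 called lower in each condition. Fitting the compared libraries alone left 0 higher and 1 lower without stimulus, 0 and 0 with LPS, and 1 and 1 with anti-IgM.

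**Figure D4:**
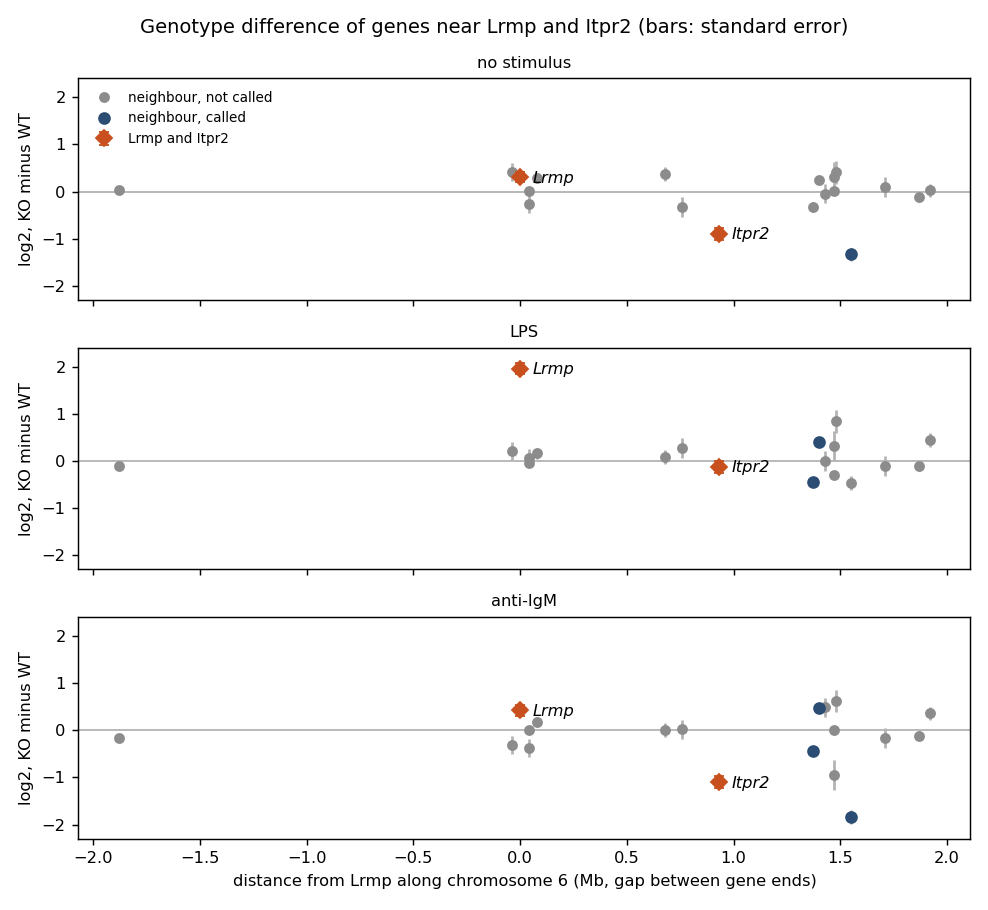
Genotype difference (log2, Trpm5-/- minus wild type, with standard error) of genes within 2 Mb of Lrmp, by distance from Lrmp along chromosome 6, in each condition. Diamonds are Lrmp and Itpr2, which have no test, dark points neighbours that passed limma's adjusted p under 0.05; Stk38l is the dark point at 1.55 Mb, at -1.33 without stimulus and -1.84 with anti-IgM.

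Near Itpr1, 3 of 8 tested neighbours were higher in Trpm5-/- cells without stimulus, 2 with LPS and 1 with anti-IgM, and none was lower (limma adjusted p under 0.05), beside 4.45%, 1.82% and 1.91% of all tested genes called higher. Il5ra, the interleukin 5 receptor alpha chain 1.46 Mb away, was higher by 2.52 ± 0.20 without stimulus (limma adjusted p = 0.000159), 1.88 ± 0.20 with LPS (0.00077) and 2.47 ± 0.20 with anti-IgM (0.000179). Trnt1 and Crbn, which overlap on opposite strands, were higher without stimulus (limma adjusted p = 0.00661 and 0.032). Bhlhe40, a transcription factor gene 0.11 Mb away, was higher by 0.38 ± 0.08 with LPS (limma adjusted p = 0.0257). Of these neighbours only Il5ra was called in more than 1 condition. Near Itpr3 on chromosome 17, 2 of 70 were higher and 1 lower without stimulus, 2 were higher with LPS and 1 with anti-IgM, numbers near the shares of all tested genes. They were Ift140, Uqcc2, Gnptg and, lower, Unkl. The counts near Itpr1 and Itpr3 were not repeated under the alternatives.

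Genes whose levels followed each member most closely were ranked by Pearson r of log2(FPKM + 1) over the 12 libraries among 7595 genes. The libraries share 6 groups of 2, so r mainly reflects group means. For Lrmp they were Iqgap1 (r = 0.966), Lnx2 (0.965) and Dtx1 (0.962). Iqgap1, a cytoskeletal scaffold, averaged with LPS 88.5 FPKM for the wild type against 111 FPKM for Trpm5-/- cells, and under anti-IgM 163 against 176 FPKM, a narrower range than that of Lrmp. For Itpr3 they were Vim (0.996), Mgat1 (0.992) and Dock8 (0.991). Vim, an intermediate filament gene, averaged 77.9 and 82.4 FPKM without stimulus (wild type, then Trpm5-/-), 16.1 and 13.6 FPKM under LPS, and 21.1 and 17.7 FPKM under anti-IgM.

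For Itpr2 the nearest genes were Os9 (r = 0.98), Pydc3 (0.974) and Pisd-ps1 (0.971). Os9, a lectin of endoplasmic reticulum quality control, averaged 31.2 FPKM in unstimulated wild-type and 27.9 FPKM in unstimulated Trpm5-/- cells. For Itpr1 they were Gramd1a (0.957), H2-T10 (0.951) and U2af1l4 (0.935). Gramd1a, a sterol transfer protein of the endoplasmic reticulum, averaged 110 FPKM in unstimulated wild-type and 46.6 FPKM in unstimulated Trpm5-/- cells. Pydc3, Pisd-ps1 and H2-T10 belong to families of near-identical genes, and their values are uncertain.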

How the data were processed

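RNA of 12 libraries was measured, 2 for each of 2 genotypes and 3 conditions. Per the labels' protocols, a SMART-Seq HT kit turned total RNA into full-length cDNA, from which Nextera libraries were made. Per the submitters' processing notes, Cufflinks 2.2.1, TopHat2 2.0.13, SAMtools 0.1.19, Bowtie2 2.2.3 and the mm10 build were used. Each deposited file lists gene symbols with 1 value each, taken as FPKM because the authors name Cufflinks and the values behave so. Libraries had median ratios to their common geometric mean of 1.008 to 1.015, so no scaling was added. The ratios were this alike although the sums differed by condition, and the values may have been scaled between libraries before deposit. Median-ratio scaling, 1 of the alternatives below, could therefore change little. The annotation and total read numbers were not given in the sources used here, and the number of libraries limits the precision.

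Tests used log2(FPKM + 1) of 10797 genes that reached 1 FPKM in 2 or more libraries, and all 4 members passed in every library. A group-means model over the 12 libraries was fitted with limma 3.58.1 in R 4.3.3 (eBayes with trend, 6 residual degrees of freedom), with 2-sided tests and a Benjamini-Hochberg adjusted p under 0.05 over all genes as a call. The fit was tested on simulated data. The members, the pathway and marker lists and the tests were chosen with earlier results of these data known. Named were the members, Trpm5, up to 4 called pathway genes of smallest adjusted p per role plus members of counts of 5 or fewer, the 3 genes most like each member, and called neighbours within 2 Mb, at most 4 on each side. Genes shown as most like a member have a mean of at least 5 FPKM and leave out predicted models and antigen receptor segments. Some genes of the pathway list are not reported by name here. Positions matched 23923 symbols, 655 through a synonym. Alternatives were a pseudocount of 0.1, other filters, median-ratio and quantile scaling, no trend, the compared libraries alone, a replicate block and leaving out each library.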

Additional observations from a re-analysis of the deposited data

How the results depend on the processing

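Calls were frequent, at 48.6% to 69.4% of all tested genes over the comparisons of conditions, and kept calls were not counted over all genes. Of 24 tested responses of the 4 genes 19 were called, and 16 of these kept direction and call under every alternative run. Itpr1 accounts for the others. Quantile normalization turned its LPS response in Trpm5-/- cells from -0.44 to 0.0134 (adjusted p = 0.944) and moved its LPS against anti-IgM difference in wild-type cells to -0.149 (0.44). With only the compared libraries these were -0.442 (0.0773) and -0.441 (0.0611). Without the trend, the anti-IgM response of Itpr1 in Trpm5-/- cells, -0.308 (0.0436), and the LPS against anti-IgM differences of Itpr3, -0.287 in wild-type (0.0316) and -0.279 in Trpm5-/- cells (0.0364), passed. The cause was not tested. Leaving out each library gave -0.598 to -0.522 for Itpr1 with anti-IgM in wild-type cells, -0.576 to -0.307 with LPS in Trpm5-/- cells and -0.532 to -0.35 in wild-type cells for LPS against anti-IgM. It gave -0.417 to -0.157 for Itpr3 in that last comparison.

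Among untested genotype differences, a pseudocount of 0.1 gave -1.15, -0.542 and -0.912 for Itpr1 (no stimulus, LPS, anti-IgM) and -1.29 for Itpr2 with anti-IgM, since a smaller pseudocount compresses low values less. Quantile normalization gave 1.74 for Lrmp with LPS, 1.46 for the difference between its LPS responses and -0.0323 for that between the anti-IgM responses of Itpr2. Leaving out each library gave 1.75 to 2.17 and -0.355 to -0.0955 for Lrmp and Itpr3 with LPS, and 1.44 to 1.87 and -0.402 to -0.143 for the differences between their LPS responses. The filter on a mean of at least 5 FPKM leaves out Itpr1.

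Genotype calls over all genes were 481 higher and 179 lower without stimulus, 196 and 192 with LPS and 206 and 207 with anti-IgM. With only the compared libraries, in fits with fewer residual degrees of freedom, they were 32 and 19, 11 and 10, and 66 and 50. With 1 library left out they were 110 to 205 and 49 to 69, 79 to 95 and 70 to 126, and 53 to 77 and 66 to 84. Without the trend 236 were higher without stimulus and 103 with anti-IgM. Quantile normalization gave 442 and 277 without stimulus and 117 and 188 with LPS. No scaling moved the median of all genes by over 0.1.

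No consistent pairing by replicate number was seen. Deviations of same-numbered libraries correlated at -0.17 to 0.20 over 15 pairs of groups, 3 of them over 0.1. Such values cannot exclude a pairing. With a replicate block the LPS response of Itpr1 in Trpm5-/- cells was -0.442 (adjusted p = 0.029), no tested member response changed its call, and 457 and 168 genes were called between genotypes without stimulus. Of the neighbours of Lrmp or Itpr2 called lower, the block left 0 with LPS and 1 with anti-IgM.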

Other observations

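Calcium that leaves the store through IP3 receptors is taken up in part by mitochondria, and genes of that uptake were on the pathway list. Micu2, a regulatory subunit of the mitochondrial calcium uniporter, went from 55.7 to 39.9 FPKM with LPS in wild-type cells (log2 -0.47 ± 0.088, limma adjusted p = 0.000763). The pore gene Mcu was at 6.56 FPKM without stimulus and 5.37 FPKM with LPS in wild-type cells and was not called (limma adjusted p = 0.23). With anti-IgM none of the 5 tested genes was called in wild-type cells, and Mcur1 rose in Trpm5-/- cells (limma adjusted p = 0.026). Calr, the store's calcium-binding protein calreticulin, rose in wild-type cells from 172 to 227 FPKM with LPS (log2 0.40 ± 0.065, limma adjusted p = 0.000296) and to 291 FPKM with anti-IgM (log2 0.75 ± 0.065, limma adjusted p = 5.61e-06). The ryanodine receptor genes Ryr1, Ryr2 and Ryr3, the other release channels of this store, did not pass the filter on low values.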
